A study of Mus musculus with 21 samples.

Results

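Igfbp1 encodes insulin-like growth factor binding protein 1, a secreted liver protein that binds the growth factors IGF-1 and IGF-2 in blood and limits their access to receptors. Hepatocytes are its main source in the adult. In the liver its transcription is held down by insulin, which sends the factor FOXO1 out of the nucleus, and it is raised by fasting, glucagon acting through cAMP, glucocorticoids, hypoxia and amino acid shortage. It is 1 of 9657 genes measured here. It was selected on its own CPM in these libraries, lower than with PBS in most treated groups but near PBS at 2 µM of TTR-1236 and of Reference 4. Those levels are therefore described without a test, and tests are given only for other genes.

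All groups were primary hepatocytes of wild-type mice sampled on Day 1. The agents were TTR-1236, TTR-1186 and Reference 4, RNAi agents aimed at Ttr, the gene of the hormone carrier transthyretin, each at 2 µM and at 0.2 µM, and the control was PBS. Each of the 7 groups had 3 libraries, 21 in all, made with the QuantSeq kit, which counts reads near the 3′ end of messenger RNA. The labels do not say whether replicates were separate cultures or animals, so the spread given here may be technical, and the culture medium is not given in the sources used here. No group with an RNAi agent against another gene was used here, so an effect of the agent and of the loss of Ttr cannot be told apart.

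The libraries held 14158740 to 37410773 reads over the listed genes, and values are CPM, reads rescaled so that each library totals 1000000. Ttr was at 3.19 to 27.1 CPM in the 18 treated libraries, against a mean of 2258 ± 84.7 CPM with PBS (SD, n = 3), so the target fits the label of every library. Of the hepatocyte markers 9 of 10 were measured, with a summed level of 12326 to 20368 CPM per library. Markers of Kupffer cells (2 of 12 measured), endothelial cells (3 of 10), stellate cells or fibroblasts (2 of 10) and bile duct cells (2 of 6) summed to at most 184 CPM in any library. In 1 library, replicate 2 of TTR-1186 at 2 µM, 109 genes were listed at 0, against 0 to 29 in the others. Replicate 3 of PBS stood farther from the other PBS libraries than any other replicate pair did, at a chi-square of 184 and 176 per degree of freedom over genes.

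Igfbp1 (ENSMUSG00000020429) lies on the forward strand of chromosome 11, at positions 7197782 to 7202546 of GRCm38, the assembly called mm10 by the submitters. It has 4 exons, and exon 4, at 7201886 to 7202546, holds the 3′ untranslated region at 7202015 to 7202546, where 3′ reads fall. No other annotated gene overlaps it. Its neighbour Igfbp3, which encodes the main IGF carrier of blood, lies 3540 bases away on the reverse strand and was not analysed here. The nearest measured neighbour was Adcy1, an adenylate cyclase gene 19276 bases away, which averaged 4.76 to 12.6 CPM over the groups.

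The 250 bases before the RefSeq start of Igfbp1 are shown because insulin acts on this gene through T-rich and A-rich elements bound by FOXO factors. The sequence is from RefSeq, build GRCm38.p6, chr11:7197537-7197786, forward strand, with capitals marking the matches found to CAAAACA and, on the reverse strand, to CAAAATA.

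Igfbp1 upstream window: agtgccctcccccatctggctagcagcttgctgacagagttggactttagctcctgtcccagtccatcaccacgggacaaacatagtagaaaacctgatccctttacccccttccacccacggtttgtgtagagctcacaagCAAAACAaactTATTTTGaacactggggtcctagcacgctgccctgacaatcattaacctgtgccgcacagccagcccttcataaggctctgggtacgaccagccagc

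Motifs were searched on both strands. CAAAACA lay at positions -108 to -102 from the start, and TATTTTG, which reads CAAAATA on the other strand, lay at -97 to -91. Of 32851 such windows of all genes 5.56% held CAAAACA, 3.95% held CAAAATA and 0.381% held both, which was 125 windows. The letters GTAAACA of a forkhead site, TGTTCT of the glucocorticoid receptor and TATAAA were not in the Igfbp1 window, and 3.17%, 16.1% and 12.4% of all windows held them. These matches describe the letters of the window and say nothing about binding.

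The group means of Igfbp1 lay in an upper range in 3 groups and in a lower range in 4. With TTR-1236 it was at 279.0, 380.5 and 387.6 CPM at 2 µM, against 202.0, 194.9 and 183.3 CPM at 0.2 µM. With Reference 4 it was at 419.2, 352.2 and 336.2 CPM at 2 µM, against 133.1, 149.1 and 150.2 CPM at 0.2 µM. For both agents every 2 µM library was above every 0.2 µM library. With TTR-1186 it was at 140.4, 194.4 and 188.1 CPM at 2 µM, against 179.3, 179.7 and 111.5 CPM at 0.2 µM, and these ranges overlapped. The PBS libraries were at 430.0, 357.9 and 371.4 CPM. The 2 µM libraries of TTR-1236 and Reference 4 overlapped the PBS range, and all 12 libraries of the other treated groups were below it.

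**Figure D1:**
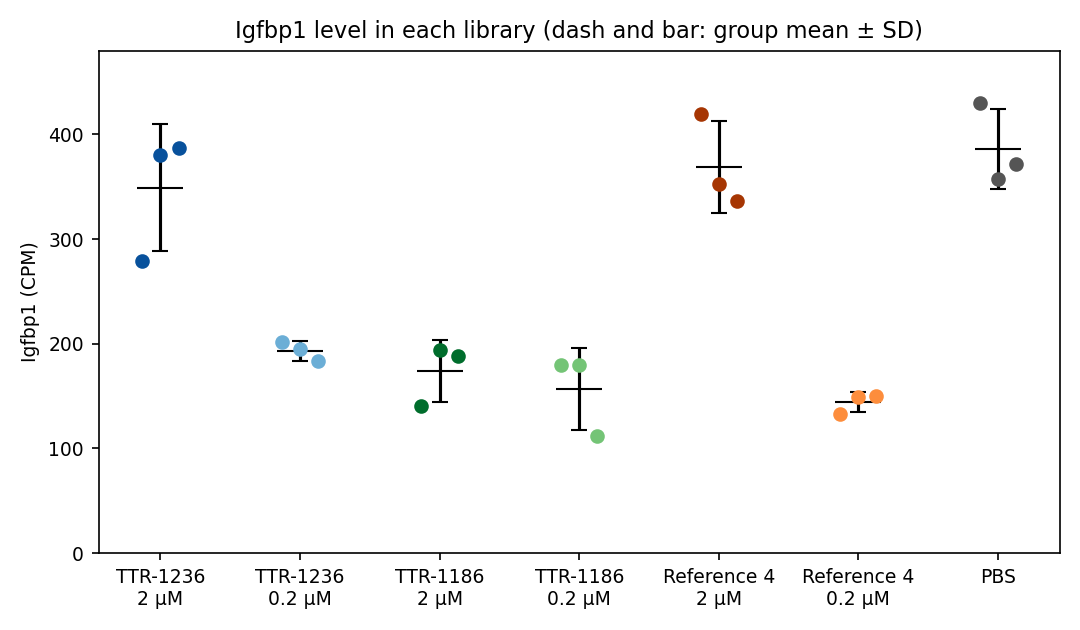
Igfbp1 in CPM in each of the 21 libraries by group, with points for libraries and dashes with bars for the group mean ± SD (n = 3). The 2 µM groups of TTR-1236 and Reference 4 and the PBS group lie at 279.0 CPM or more, and the other 4 groups at 202.0 CPM or less.

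Igfbp1 averaged 349 ± 60.7 CPM with 2 µM and 193 ± 9.46 CPM with 0.2 µM of TTR-1236, 174 ± 29.5 CPM with 2 µM and 157 ± 39.2 CPM with 0.2 µM of TTR-1186, and 369 ± 44.0 CPM with 2 µM and 144 ± 9.59 CPM with 0.2 µM of Reference 4, against 386 ± 38.4 CPM with PBS (SD, n = 3 each). Set against the PBS mean, 2 µM and 0.2 µM of TTR-1236 gave 90.3% and 50.05%, the same doses of TTR-1186 gave 45.1% and 40.6%, and those of Reference 4 gave 95.5% and 37.3%. In order of level the groups ran PBS, Reference 4 at 2 µM, TTR-1236 at 2 µM, TTR-1236 at 0.2 µM, TTR-1186 at 2 µM, TTR-1186 at 0.2 µM and Reference 4 at 0.2 µM. Neighbours in that order had overlapping ranges except at 1 step. That step, between TTR-1236 at 2 µM and TTR-1236 at 0.2 µM, was 156 CPM, or 2.22 times the sum of both SDs, whereas the other 5 steps were 0.19 to 0.49 times that sum.

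The reads behind these values numbered 1884 to 12866 per library, so that the counting error of a library was 0.88% to 2.30% of its value. The replicate spread was wider, with a coefficient of variation of 4.89% for TTR-1236 at 0.2 µM, the lowest, and 25.02% for TTR-1186 at 0.2 µM, the highest. In that last group replicate 3 alone was low, at 111.5 CPM. These intervals cover counting error only, since reads without molecular identifiers are not independent molecules.

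On the log2(CPM + 1) scale Igfbp1 differed from PBS by -0.16 (SE 0.17) with 2 µM and -0.99 (SE 0.09) with 0.2 µM of TTR-1236. The difference was -1.15 (SE 0.17) with 2 µM and -1.32 (SE 0.24) with 0.2 µM of TTR-1186. It was -0.07 (SE 0.13) with 2 µM and -1.41 (SE 0.10) with 0.2 µM of Reference 4. All 6 share the PBS libraries, and each SE is from the 6 libraries of its comparison. Both near-PBS differences were smaller than their SE.

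Between doses of the same agent, Igfbp1 at 2 µM less that at 0.2 µM was 0.83 (SE 0.16) for TTR-1236, a ratio of mean CPM of 1.80. It was 1.35 (SE 0.11) for Reference 4, a ratio of 2.56. For TTR-1186 it was 0.17 (SE 0.27), a ratio of 1.11, and leaving out single libraries moved it between -0.06 and 0.32. Igfbp1 was thus higher, not lower, at the larger dose of TTR-1236 and Reference 4, while the Ttr ranges of both doses overlapped. Ttr averaged 13.3 ± 4.95 CPM at 2 µM and 8.58 ± 2.90 CPM at 0.2 µM of TTR-1236, and 19.2 ± 7.25 CPM at 2 µM and 13.3 ± 7.17 CPM at 0.2 µM of Reference 4 (SD, n = 3 each).

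Between agents at the same dose, 6 pairs were compared. At 2 µM, TTR-1186 less Reference 4 was -1.09 (SE 0.18), TTR-1236 less TTR-1186 was 1.00 (SE 0.21) and TTR-1236 less Reference 4 was -0.09 (SE 0.18). The first of these pairs and the next had ranges that did not overlap. At 0.2 µM, TTR-1236 less Reference 4 was 0.42 (SE 0.07) and TTR-1236 less TTR-1186 was 0.33 (SE 0.23), each without overlap, and TTR-1186 less Reference 4 was 0.09 (SE 0.23), with overlap. The agents are known here by code names only, so no difference in structure is given.

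The share of reads from the mitochondrial ribosomal RNA genes also differed between doses, with a lower mean at 2 µM than at 0.2 µM of each agent. It averaged 0.412% at 2 µM and 1.64% at 0.2 µM of TTR-1236, 1.59% at 2 µM and 2.78% at 0.2 µM of TTR-1186, and 0.767% at 2 µM and 2.70% at 0.2 µM of Reference 4, against 2.25% with PBS. Its part in the Igfbp1 levels was not tested beyond the values given here. Over the 21 libraries its correlation with log2 Igfbp1 was -0.57, but within the 9 libraries of the 3 upper groups it was 0.41 and within the 12 libraries of the 4 lower groups -0.57. PBS libraries had high Igfbp1 at shares of 3.26%, 2.70% and 0.797%. With all genes encoded by mitochondrial DNA left out of the totals, the dose differences were 0.80 for TTR-1236, 0.14 for TTR-1186 and 1.32 for Reference 4.

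Alb, the albumin gene and a marker of hepatocyte identity, was at 4719 to 7257 CPM at 2 µM and 4833 to 6118 CPM at 0.2 µM of TTR-1236. It was at 4712 to 5356 CPM at 2 µM and 3952 to 4701 CPM at 0.2 µM of TTR-1186. It was at 5894 to 6913 CPM at 2 µM and 3559 to 3811 CPM at 0.2 µM of Reference 4, against 4384 to 5809 CPM with PBS. Alb rose with Reference 4 at 2 µM against 0.2 µM (log2 fold change 0.80, SE 0.14, adjusted p = 0.0022). In such bulk samples, fewer cells with the gene and less RNA per cell cannot be told apart.

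Genes whose levels ran most like Igfbp1 were ranked by Pearson r of log2(CPM + 1) over the 21 libraries, among the 7429 genes that averaged at least 10 CPM. Since the libraries form separate upper and lower sets, r is also given within each set, and all of these values are descriptions over libraries that share groups. The 8 most like genes were Fga (r = 0.90), Cdo1 (0.89), Hmga1b (0.87), Hmga1 (0.87), Mt2 (0.87), AI413582 (0.84), Fgg (0.83) and Fgb (0.82). In all, 10 genes were above 0.8 and 3 below -0.8, and the 1st and 99th percentiles of the 7429 genes were -0.66 and 0.69.

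Fga, Fgb and Fgg encode the 3 chains of fibrinogen, the clotting protein made by hepatocytes. Fga was at 175, 254 and 205 CPM at 2 µM and 167, 187 and 129 CPM at 0.2 µM of TTR-1236. It was at 139, 172 and 164 CPM at 2 µM and 120.4, 98.9 and 100.5 CPM at 0.2 µM of TTR-1186. It was at 238, 235 and 228 CPM at 2 µM and 122, 135 and 101 CPM at 0.2 µM of Reference 4, against 245, 243 and 224 CPM with PBS. The order of groups was near that of Igfbp1, with an r of 0.95 over the 7 group means, and Fga also followed Igfbp1 within the upper set (0.72) and the lower set (0.62). Fgb gave 0.58 in the upper set and 0.47 in the lower set, and Fgg gave 0.38 in the upper set and 0.30 in the lower set. Fga and Fgb correlated with each other at 0.84.

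Cdo1, cysteine dioxygenase, gave 0.59 in the upper set and 0.46 in the lower set. Mt2, metallothionein 2, which binds zinc and copper and is induced by metals and glucocorticoids, gave 0.60 in the upper set and 0.53 in the lower set. Mt2 was also the gene whose deviations from the group means ran most like those of Igfbp1 (r = 0.77), followed by Tatdn2 (0.75), Lect2 (0.73), Krt18 (0.71) and Uck2 (0.70). Mt2 was thus picked by both rankings, over libraries and over deviations, so these r are high by selection. It overlaps the measured antisense gene Gm45774, and the strand setting of the counting is not given in the sources used here.

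Mt2 was at 2581, 3613 and 3283 CPM at 2 µM and 2407, 2332 and 1830 CPM at 0.2 µM of TTR-1236. It was at 2141, 2820.5 and 2560.1 CPM at 2 µM and 1930, 1852 and 1640 CPM at 0.2 µM of TTR-1186. It was at 3568, 3308 and 2999 CPM at 2 µM and 2124, 2361 and 2053 CPM at 0.2 µM of Reference 4, against 2953, 2774 and 2840 CPM with PBS. As for Igfbp1, every 2 µM library of TTR-1236 and Reference 4 was above every 0.2 µM library of the same agent. Unlike Igfbp1, Mt2 also had all 2 µM libraries of TTR-1186 above its 0.2 µM libraries.

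Hmga1b, Hmga1 and AI413582 do not count as separate genes here. Hmga1b, a near-identical copy of the chromatin protein gene Hmga1, had 0.995 times its summed CPM, and AI413582 overlaps Hmga1 on the opposite strand and had 1.08 times, so their reads may be split or shared. They gave r of 0.75 to 0.77 in the lower set but -0.36 to -0.28 in the upper set, so their likeness to Igfbp1 rested on the step between the sets and on the lower set.

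The 5 most opposite genes were Tpm2 (r = -0.90), Acta2 (-0.82), Cnn1 (-0.81), Myl9 (-0.79) and Endod1 (-0.79). Tpm2 (tropomyosin), Acta2 (smooth muscle actin), Cnn1 (calponin) and Myl9 (myosin light chain) encode parts of the contractile actin apparatus. Tpm2 was at 164, 109 and 137 CPM at 2 µM and 229, 186 and 249 CPM at 0.2 µM of TTR-1236. It was at 299.9, 199 and 167 CPM at 2 µM and 199, 292 and 282 CPM at 0.2 µM of TTR-1186. It was at 108, 149 and 139 CPM at 2 µM and 203, 282 and 299.6 CPM at 0.2 µM of Reference 4, against 110.4, 141 and 153 CPM with PBS. The 9 libraries with high Igfbp1 were the 9 with the lowest Tpm2, and Tpm2 gave r of -0.79 in the upper set and -0.52 in the lower set.

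Acta2 was low throughout, at 3.34 to 26.8 CPM. It is also a marker of stellate cells, whose measured markers Acta2 and Dcn summed to 22.9 to 23.3 CPM with 2 µM and 26.2 to 28.5 CPM with 0.2 µM of TTR-1236, and to 30.97 to 49.6 CPM with 2 µM and 26.3 to 37.0 CPM with 0.2 µM of TTR-1186. With Reference 4 they summed to 14.6 to 27.3 CPM at 2 µM and 21.6 to 32.4 CPM at 0.2 µM, against 9.91 to 25.1 CPM with PBS. The other 8 of the 10 stellate markers were not analysed here. The part of such cells in the Igfbp1 levels was not tested.

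**Figure D2:**
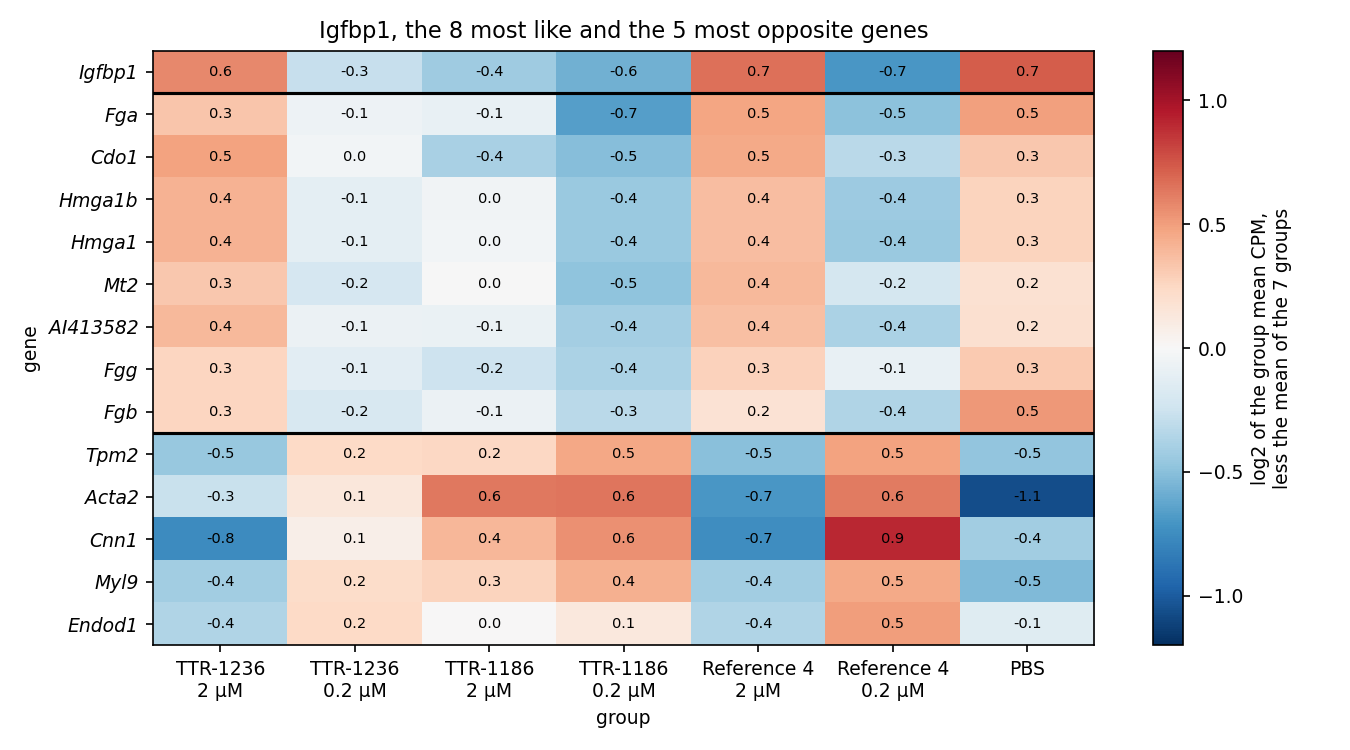
Group levels of Igfbp1, the 8 most like and the 5 most opposite genes, as log2 of the group mean CPM less the mean over the 7 groups. Igfbp1 and the like genes are positive at 2 µM of TTR-1236 and Reference 4 and with PBS, and the 5 opposite genes are negative there.

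**Figure D3:**
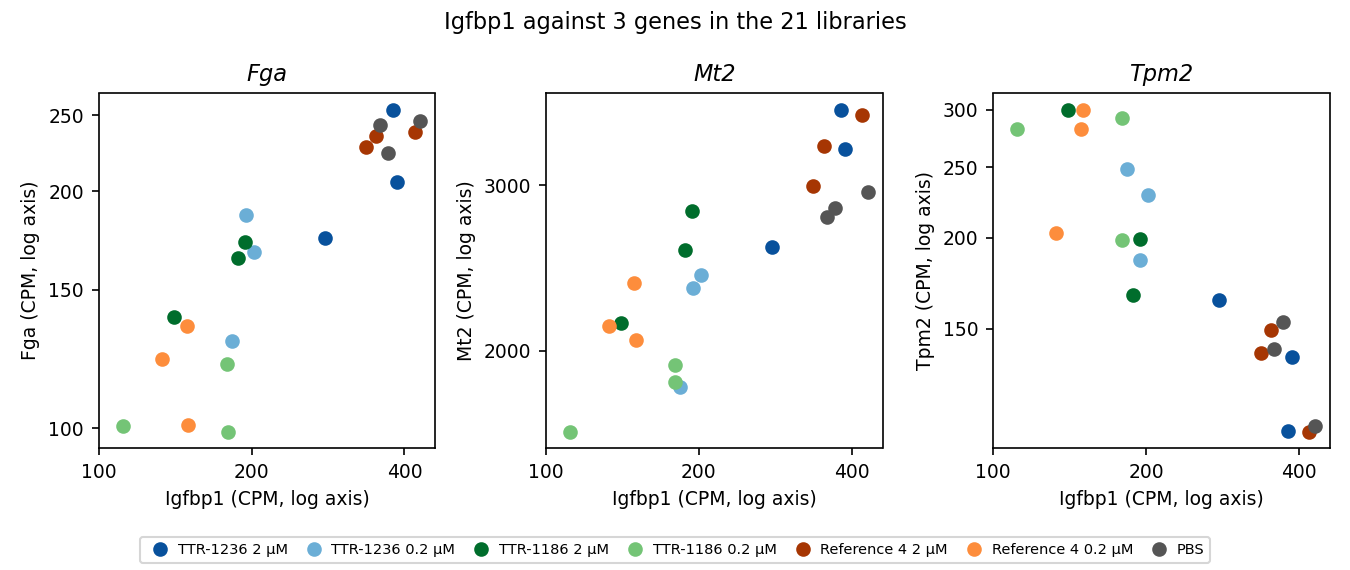
Igfbp1 in CPM against Fga, Mt2 and Tpm2 in CPM on log axes, 1 point per library and 1 colour per group. Fga and Mt2 are higher where Igfbp1 is higher (r = 0.90 and 0.87) and Tpm2 is lower (r = -0.90).

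The upstream windows of the like genes were searched for the same letters. Of the 7 with a window, CAAAACA was found in Fgg only, TGTTCT in Fgg only, and CAAAATA in none.

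Genes that act with Igfbp1 or are known to be regulated alongside it were tested as 14 lists with 173 names, of which 133 were measured. The test was limma over all 9657 genes, and rises and falls below are those with a p adjusted over all genes of under 0.05. The lists were drawn up with earlier results of these data known.

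With 2 µM of TTR-1236 against PBS 10 of 133 related genes (7.52%) passed, 5 higher and 5 lower, where 6.33% of all genes passed. With 2 µM of Reference 4 against PBS it was 8 of 133 (6.02%), 5 higher and 3 lower, against 2.25% of all genes. The other tools gave 11 (edgeR) and 15 (DESeq2) related genes for TTR-1236, or 8.27% and 11.3%, where they called 6.86% and 10.9% of all genes. For Reference 4 edgeR called 8 and DESeq2 12, or 6.02% and 9.02%, where they called 2.85% and 7.58% of all genes, so the distance from the share of all genes depended on the tool. These counts rested on single libraries. Without PBS replicate 1, or without PBS replicate 2, both counts were 0, and without PBS replicate 3 they were 21 for TTR-1236 and 14 for Reference 4. Leaving out replicate 3 of the treated group also gave 0 for either agent, and leaving out replicate 2 gave 2 for either agent, while leaving out replicate 1 gave 1 for Reference 4.

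Markers of some other cells moved with these comparisons. The summed Kupffer cell markers were at 102 to 157 CPM with 2 µM of TTR-1236 and 128 to 157 CPM with 2 µM of Reference 4, against 79.6 to 101.3 CPM with PBS. The summed bile duct markers were at 42.8 to 47.2 CPM with 2 µM of TTR-1236 and 44.5 to 48.2 CPM with 2 µM of Reference 4, against 29.1 to 42.3 CPM with PBS. For both lists, of 2 measured genes each, the 2 µM libraries of these agents lay above the PBS libraries. The nearest values were 101.95 against 101.31 CPM (Kupffer) and 42.82 against 42.25 CPM (bile duct). The summed endothelial markers were at 30.3 to 39.3 CPM with 2 µM of TTR-1236 and 31.8 to 43.8 CPM with 2 µM of Reference 4. With PBS they were at 36.6 to 45.4 CPM. These endothelial ranges, and those of the stellate markers, overlapped PBS. At 0.2 µM the Kupffer sums were 102 to 133 CPM with TTR-1236 and 85.1 to 184 CPM with Reference 4, and the bile duct sums 28.0 to 37.6 CPM and 24.5 to 43.2 CPM. With TTR-1186 the Kupffer sums were 77.2 to 120 CPM at 2 µM and 86.7 to 88.4 CPM at 0.2 µM, and the bile duct sums 31.6 to 42.3 CPM and 31.9 to 43.2 CPM. The part of these cells in the counts of related genes, against PBS and between doses, was not tested.

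In 6 comparisons 0 of the 133 passed by limma. For 0.2 µM against PBS, 13 had an unadjusted p under 0.05 with TTR-1236, 27 with TTR-1186 and 25 with Reference 4. Of all 9657 genes, 665, 928 and 1426 did so, and 0.0207%, 0.0311% and 0.166% passed. For 2 µM of TTR-1186 against PBS 19 of the 133 had an unadjusted p under 0.05. So did 890 of all 9657 genes, and 0.0518% of all genes passed. For 2 µM against 0.2 µM, it was 20 of the 133 with TTR-1236 and 18 with TTR-1186, and 1112 and 1415 of all 9657 genes. Of all genes 0.135% and 0.0% passed there, and for TTR-1186 edgeR called 0 and DESeq2 106 of them. In these comparisons edgeR called 0 related genes. DESeq2 called 1 with 0.2 µM of TTR-1186 (Mt2) and 4 with 0.2 µM of Reference 4 (Cebpb, Htra2, Cebpd and Fkbp5) against PBS, and between doses 1 with TTR-1236 (Mt2) and 3 with TTR-1186 (Cebpa, Selenop and Dusp1). Of all 9657 genes DESeq2 called 29, 88, 118 and 106 in these comparisons, in the same order. Without PBS replicate 3 limma called 2 with 0.2 µM of TTR-1236, 1 with 0.2 µM and 1 with 2 µM of TTR-1186, and 5 with 0.2 µM of Reference 4 against PBS. It called 1 without replicate 1 of TTR-1186 at 2 µM and 1 without replicate 3 of Reference 4 at 0.2 µM, both against PBS, and 2 between doses of TTR-1236 without its 2 µM replicate 1.

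Between 2 µM and 0.2 µM of Reference 4, the comparison in which Igfbp1 differed most between doses, 19 of 133 related genes (14.3%) passed, 15 higher and 4 lower, where 12.8% of all genes passed, so the share was near that of all genes. The count was 10 without replicate 2 and 5 without replicate 3 of the 2 µM group, and 12 without replicate 1 and 10 without replicate 2 of the 0.2 µM group. The median of the 133 was 0.10, against 0.03 over all genes.

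In the IGF axis 9 of 20 listed genes were measured. Igf1, the ligand that Igfbp1 binds, had the closest likeness to it among them (r = 0.70, and 0.46 in the upper and 0.39 in the lower set). Igf1 was at 189.5, 320.1 and 290.3 CPM at 2 µM and 164, 222 and 203 CPM at 0.2 µM of TTR-1236. It was at 176, 216 and 210.3 CPM at 2 µM and 205, 168 and 199 CPM at 0.2 µM of TTR-1186. It was at 311, 257 and 274 CPM at 2 µM and 140.3, 137 and 181 CPM at 0.2 µM of Reference 4, against 233, 207 and 178 CPM with PBS. Igf1 rose with 2 µM against 0.2 µM of Reference 4 (log2 fold change 0.88, SE 0.18, adjusted p = 0.0050), and this call held in all 6 fits without 1 library. Against PBS it was at a log2 fold change of 0.45 (SE 0.18, adjusted p = 0.16) with 2 µM of Reference 4 and 0.34 (SE 0.18, adjusted p = 0.25) with 2 µM of TTR-1236, neither past the threshold.

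Among the other binding proteins Igfbp7, which binds IGFs weakly, rose with 2 µM against 0.2 µM of Reference 4, at 11.7 CPM against 3.71 CPM (log2 fold change 1.41, SE 0.41, adjusted p = 0.026). Igfbp4, which holds IGFs away from their receptor, was at 181 and 127 CPM (log2 fold change 0.53, SE 0.18, adjusted p = 0.061). Igfbp2 and Igfals, the stabiliser of the circulating IGF complex, had log2 fold changes of 0.25 (SE 0.36) and -0.33 (SE 0.36). All 4 had r with Igfbp1 of 0.07 to 0.55.

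The receptors Igf2r, Insr and Ghr, which take up IGF-2 and sense insulin and growth hormone, did not pass in any comparison. Over the 21 libraries their r with Igfbp1 was -0.59, -0.43 and -0.42. Igf2r had r of -0.33 in the upper and -0.55 in the lower set, and Ghr -0.55 and -0.49. Insr was at -0.47 in the lower set but at 0.03 in the upper, where it did not run opposite to Igfbp1. Insr, the insulin receptor, was at 8.04 CPM and 17.3 CPM with 2 µM and 0.2 µM of TTR-1236 (log2 fold change -1.03, SE 0.42, adjusted p = 0.33). Htra2, listed with the proteases of this axis but known as a mitochondrial serine protease, rose with 2 µM against 0.2 µM of Reference 4, at 7.24, 19.5 and 21.9 CPM against 2.54, 1.202 and 2.43 CPM (log2 fold change 2.39, SE 0.43, adjusted p = 0.0023).

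Of 23 measured genes of insulin signalling, the pathway that represses Igfbp1, 3 passed between 2 µM and 0.2 µM of Reference 4, a share near the 12.8% of all genes. Akt1, the kinase that phosphorylates FOXO1, rose (log2 fold change 0.78, SE 0.26, adjusted p = 0.049), and Pik3r1, the regulatory subunit of PI 3-kinase, fell (-1.44, SE 0.38, adjusted p = 0.019), as did Gsk3b, a kinase that AKT inhibits, at 39.2 and 79.6 CPM (SE of the log2 fold change 0.28, adjusted p = 0.024). Against PBS, Pik3r1 fell with 2 µM of TTR-1236 (-1.49, SE 0.38, adjusted p = 0.025) and of Reference 4 (-1.54, SE 0.38, adjusted p = 0.037), and Gsk3b fell with 2 µM of TTR-1236 (-1.30, SE 0.28, adjusted p = 0.014). Between doses the Akt1 call held in 1 of 6 fits without 1 library, that of Pik3r1 in 2 and that of Gsk3b in 3. The Akt1 call was also lost with a pseudocount of 0.5. Against PBS the Pik3r1 calls held in 2 of 6 (TTR-1236) and 1 of 6 (Reference 4), and the Gsk3b call in 3 of 6. Each of these calls against PBS was lost in the fit of only the libraries compared. Foxo1 was at 84.2 CPM with 2 µM and 69.1 CPM with 0.2 µM of Reference 4, with a log2 fold change of 0.29 (SE 0.17, adjusted p = 0.27). Irs2, an insulin receptor substrate that FOXO1 raises, was at 20.1 and 24.6 CPM (-0.23, SE 0.36, adjusted p = 0.72).

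FOXO-regulated and gluconeogenic genes had 11 of 20 members measured, and the listed G6pc, Pck1, Ppargc1a and Pdk4 were not among them. None of the 11 passed between doses of Reference 4 (1 had an unadjusted p under 0.05), where 12.8% of all genes passed. Against PBS, 1 of the 11 rose with 2 µM of either agent, where 6.33% (TTR-1236) and 2.25% (Reference 4) of all genes passed. That was Apoc3, an apolipoprotein gene that insulin represses (0.78, SE 0.17, adjusted p = 0.014 with TTR-1236, and 0.75, SE 0.17, adjusted p = 0.025 with Reference 4). Each Apoc3 call held in 2 of 6 fits without 1 library and was lost in the fit of only the libraries compared. The lipogenic genes that insulin induces had 15 of 16 measured and none passed in these 3 comparisons by limma, with 2 at an unadjusted p under 0.05 in each. Srebf1, a factor that switches on lipid synthesis, and Fasn, fatty acid synthase, had log2 fold changes of 0.57 (SE 0.40) and -0.33 (SE 0.24) between doses of Reference 4.

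The list of the glucocorticoid receptor, its targets and the enzyme Hsd11b1 had 12 measured genes. Between doses of Reference 4, 5 of the 12 (41.7%) passed, all higher, where 12.8% of all genes passed, and the median log2 fold change of the list was 0.55 against 0.03 over all genes. Mt2 rose (0.59, SE 0.14, adjusted p = 0.0079), Fkbp5, a co-chaperone of the receptor, rose (1.06, SE 0.25, adjusted p = 0.010), and so did the transcription factor gene Cebpd (1.06, SE 0.30, adjusted p = 0.025) and the phosphatase gene Dusp1 (0.73, SE 0.24, adjusted p = 0.045). The other call was Hsd11b1, the enzyme that makes active glucocorticoid in the liver. Of the first 4 of these, Mt2 alone passed in all 6 fits without 1 library. Sgk1, the listed gene second to Mt2 in likeness to Igfbp1 (r = 0.78), was at a log2 fold change of 0.60 (SE 0.23, adjusted p = 0.092). Among the other targets Zbtb16 was at 10.9 and 28.7 CPM (-1.39, SE 0.56, adjusted p = 0.10) and Klf9 at 42.3 and 64.04 CPM (-0.55, SE 0.30, adjusted p = 0.24), neither past the threshold. Their r with Igfbp1 was -0.36 and -0.42 over the 21 libraries, 0.63 and 0.24 in the upper set and -0.65 and -0.32 in the lower set. Nr3c1, the receptor itself, was at 8.70 and 20.2 CPM (-1.17, SE 0.43, adjusted p = 0.074), and it fell with 2 µM of TTR-1236 against PBS (-1.49, SE 0.43, adjusted p = 0.041). That call held in 1 of 6 fits without 1 library. It was also lost with replicate number in the fit and in the fit of only the libraries compared. With 2 µM of TTR-1186 against PBS, Nr3c1 was at -1.08 (SE 0.43, adjusted p = 0.42), not past the threshold.

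**Figure D4:**
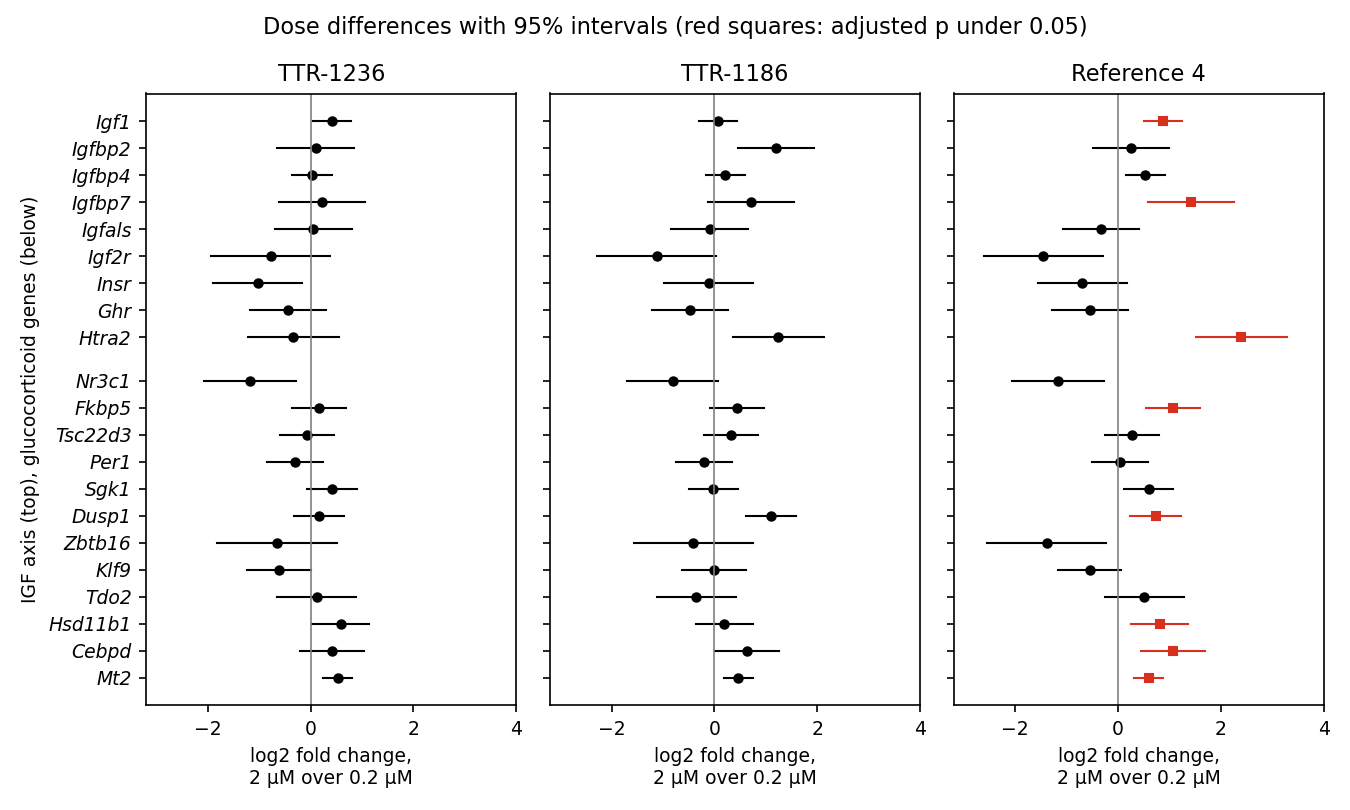
Log2 fold change of 2 µM over 0.2 µM with its 95% interval for the 9 measured IGF axis genes and the 12 measured glucocorticoid genes, 1 panel per agent, red squares where the adjusted p was under 0.05. With Reference 4, 3 IGF axis genes and 5 glucocorticoid genes rose, where 12.8% of all genes passed. With TTR-1236 and TTR-1186 none passed, where 0.135% and 0.0% of all genes did.

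Of the hypoxia list 1 of 14 measured genes, and of the ATF4 list 2 of 18, passed between doses of Reference 4, where 12.8% of all genes passed. Slc2a1, a glucose transporter gene induced by hypoxia, rose between doses of Reference 4, at 81.6, 72.5 and 58.2 CPM against 36.4, 38.5 and 40.4 CPM (0.85, SE 0.19, adjusted p = 0.0074). Hif1a was at 79.4 and 110.6 CPM (-0.45, SE 0.18, adjusted p = 0.10) and Vegfa at 14.9 and 35.02 CPM (SE 0.43, adjusted p = 0.13). Atf4, the factor of the amino acid response, and its target Trib3 were at -0.18 (SE 0.15) and -0.12 (SE 0.18), while Atf5 fell (-0.75, SE 0.21, adjusted p = 0.023) and the serine synthesis gene Phgdh rose (0.62, SE 0.19, adjusted p = 0.035). The last 2 calls each held in 2 of 6 fits without 1 library. That of Phgdh was also lost with edgeR, with DESeq2 and in the fit of only the libraries compared. Pgk1, a glycolytic gene of the hypoxia list, rose against PBS with 2 µM of TTR-1236 (0.57, SE 0.13, adjusted p = 0.017) and of Reference 4 (0.54, SE 0.13, adjusted p = 0.034), and Atf5 fell with TTR-1236 (-1.02, SE 0.21, adjusted p = 0.0096) and with Reference 4 (-0.92, SE 0.21, adjusted p = 0.024).

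Among liver factors of the Igfbp1 promoter, 1 of 9 passed between doses of Reference 4, where 12.8% of all genes passed. That was Hnf4a, a nuclear receptor that sets hepatocyte identity, which rose (0.91, SE 0.25, adjusted p = 0.020). Prkar1a, a regulatory subunit of the cAMP-dependent kinase, rose too (0.51, SE 0.15, adjusted p = 0.027). The Hnf4a call held in 3 of 6 fits without 1 library and the Prkar1a call in 2 of 6.

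Other secreted liver regulators had 4 of 12 members past the threshold with 2 µM of TTR-1236, where 6.33% of all genes passed, and 4 of 12 with 2 µM of Reference 4, where 2.25% did, both against PBS. All 8 of these calls were lost without PBS replicate 1, without PBS replicate 2 or without replicate 3 of the treated group. Those of TTR-1236, and those of Hamp and Rbp4 with Reference 4, were also lost in the fit of only the libraries compared. Lcn2, lipocalin 2, rose with TTR-1236 (0.54, SE 0.16, adjusted p = 0.046) and with Reference 4 (0.68, SE 0.16, adjusted p = 0.028), and so did Rbp4, the retinol carrier that binds transthyretin (0.40, SE 0.11, adjusted p = 0.039 with TTR-1236, and 0.45, SE 0.11, adjusted p = 0.041 with Reference 4). Fetub, fetuin B, fell with TTR-1236 (-0.97, SE 0.25, adjusted p = 0.024) and with Reference 4 (-1.05, SE 0.25, adjusted p = 0.028). Hamp, the gene of the iron hormone hepcidin, rose with Reference 4 (1.61, SE 0.41, adjusted p = 0.038), and Angptl6 passed with TTR-1236 (1.97, SE 0.53, adjusted p = 0.030) from low counts, with 1 PBS library at 0. The Angptl6 call was lost with edgeR, with DESeq2 and in 5 of 6 fits without 1 library, where its log2 fold change was 1.34 to 2.68. The calls of Fetub with TTR-1236 and of Hamp and Rbp4 with Reference 4 were lost with edgeR, and that of Rbp4 also with TMM scaling. These 2 comparisons share the PBS libraries. With 0.2 µM of TTR-1236, 2 µM of TTR-1186 and 0.2 µM of TTR-1186 against PBS, none of these genes passed. In that order, the log2 fold changes were 1.96, 1.54 and 1.10 for Angptl6 and -0.84, -0.63 and -0.69 for Fetub. They were 0.22, 0.25 and 0.07 for Rbp4, 0.29, -0.10 and 0.16 for Lcn2, and -0.07, 0.26 and -0.41 for Hamp. Between doses of Reference 4, Hamp (1.57, SE 0.41, adjusted p = 0.016) and Lcn2 (0.70, SE 0.16, adjusted p = 0.0078) rose, and Fetub fell (-0.88, SE 0.25, adjusted p = 0.023).

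Whether the dose difference of a related gene differed between agents was tested in 3 interactions, and 0 of 133 genes passed by limma in each, with 13, 15 and 12 genes at an unadjusted p under 0.05 for TTR-1236 less TTR-1186, Reference 4 less TTR-1186 and TTR-1236 less Reference 4. By edgeR 0 passed. By DESeq2 0 passed in the first, 1 (Lcn2) in the next and 1 (Htra2) in the last. Htra2 also passed in the last by limma without 2 µM replicate 2 of TTR-1236 or without 2 µM replicate 1 of Reference 4. Of all 9657 genes, limma and edgeR also called 0 in each interaction, and DESeq2 called 0, 34 and 66, in the same order. By limma, 658, 874 and 914 of all genes had an unadjusted p under 0.05. The limma and edgeR counts of 0 thus do not set the related genes apart from all genes. The dose difference of Igf1 was 0.42 (SE 0.18) for TTR-1236, 0.07 (SE 0.18) for TTR-1186 and 0.88 (SE 0.18) for Reference 4, the same order as for Igfbp1, and TTR-1236 less Reference 4 was -0.46 (95% interval -0.99 to 0.06, adjusted p = 0.60). Mt2 had dose differences of 0.52 for TTR-1236, 0.47 for TTR-1186 and 0.59 for Reference 4 (SE 0.14 each), and TTR-1236 less Reference 4 was -0.07 (95% interval -0.47 to 0.33, adjusted p = 0.95). Of the 36 named calls of related genes, 4 were kept in every fit without 1 library and in every other setting, those of Htra2, Igf1, Mt2 and Slc2a1 between doses of Reference 4.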

How the data were processed

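Expression in 21 libraries was deposited as CPM: the authors rescaled reads so that the 9657 genes of a file total 1000000. The tools were cutadapt 1.15, HISAT2 2.1.0 and featureCounts with build mm10, per the submitters' processing notes; settings, strandedness and annotation were not given in the sources used. All deposited CPM (100.0%) were whole reads to within 0.001, and the recovered totals were 14158740 to 37410773 reads. Symbols were matched from GENCODE annotation of GRCm38 for 9652 identifiers. Groups follow the agent and dose in the labels. Igfbp1 was chosen, and the 14 related lists and markers were written, with earlier results of these data known. Igfbp1 is given as CPM per library and as differences of log2(CPM + 1) with replicate errors and no test. Related genes were tested with limma 3.58.1 in R 4.3.3 on log2(CPM + 1), a pseudocount of 1 that understates changes of low genes, with 7 group means, a trended robust prior and Benjamini-Hochberg adjustment over all 9657 genes, threshold 0.05; the step was tested on simulated data. No filter was applied to the deposited genes before testing, and the lowest mean of a listed gene was 1.22 CPM. Named genes were Igfbp1, the 8 most like, 5 most opposite and 5 most like in deviations, up to 4 called genes per list and comparison, and a set of insulin and IGF genes where measured, of which some are not reported here. Alternatives were edgeR 4.0.16 and DESeq2 1.42.0 on recovered reads, pseudocounts of 0.5 and 5, TMM and DESeq2 scaling, a minimum mean of 10 CPM, totals without mitochondrial genes, medians, the replicate block, fits of only the libraries compared, and leaving out each library. The most similar replicates still had a chi-square of 25.1 per degree of freedom over genes, above sampling noise.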

Additional observations from a re-analysis of the deposited data

How the results depend on the processing

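Igfbp1 differences near 0 changed sign without single libraries: Reference 4 at 2 µM against PBS ranged from -0.16 to 0.01, the dose difference of TTR-1186 from -0.06 to 0.32, and, between agents, TTR-1186 less Reference 4 at 0.2 µM from -0.02 to 0.32 and TTR-1236 less Reference 4 at 2 µM from -0.17 to 0.06. With group medians TTR-1236 at 2 µM against PBS was 0.03 and TTR-1236 less Reference 4 at 2 µM was 0.11. TMM and DESeq2 factors moved the median of all genes by less than 0.1. Counts of related genes depended more on the setting. Fits of only the libraries compared gave 0 for TTR-1236 and 3 for Reference 4 at 2 µM against PBS, and 3 for the dose difference of TTR-1236. DESeq2 gave 1 and 4 for 0.2 µM of TTR-1186 and Reference 4 against PBS, 1 and 3 for the dose differences of TTR-1236 and TTR-1186, and 1 for each of 2 interactions, Reference 4 less TTR-1186 and TTR-1236 less Reference 4. Without single libraries the counts were 0 to 21 for TTR-1236 and 0 to 14 for Reference 4 at 2 µM against PBS, 0 to 2, 0 to 1 and 0 to 5 for 0.2 µM of TTR-1236, TTR-1186 and Reference 4, 0 to 1 for 2 µM of TTR-1186, 0 to 2 for the dose difference of TTR-1236, 5 to 19 for that of Reference 4, and 0 to 1 for the interaction of TTR-1236 and Reference 4. Fits with fewer libraries have fewer degrees of freedom, and the causes of these changes were not tested. Of 36 named calls 19 were kept in every setting that used all libraries of the groups compared, 4 of these also in every fit without 1 library, and 0 reversed. Same-numbered libraries correlated at -0.392 to 0.289 (median 0.018) over 63 pairs, and 5 of 21 libraries correlated best with their own number, so numbers do not pair the samples. The replicate block could not change the Igfbp1 differences, since every group has 1 library of each replicate number. With it the related counts were 10, 10 and 19 for TTR-1236 and Reference 4 at 2 µM against PBS and the dose difference of Reference 4.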
